A study of Mus musculus with 2 samples.

Results

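The kallikrein 1b genes Klk1b3, Klk1b5, Klk1b8, Klk1b9, Klk1b21, Klk1b22, Klk1b24 and Klk1b27 of the mouse testis are described here. They are 8 of the 36547 genes in the single-cell count tables, which list 20 other kallikrein rows. They were selected on the measured values themselves, because 4 of them, Klk1b21, Klk1b22, Klk1b24 and Klk1b27, were highest in Leydig cells and 4, Klk1b3, Klk1b5, Klk1b8 and Klk1b9, in spermatids. That split is therefore a description and carries no test. The first set is called the Leydig forms and the second the spermatid forms.

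Tissue kallikreins are secreted serine proteases that are made as inactive precursors and cut peptide bonds after basic residues. Klk1, the tissue kallikrein proper, releases kinins from kininogen, and the kallikrein 1b genes are a rodent expansion of it whose products process growth factor and hormone precursors. Leydig cells lie between the seminiferous tubules and make testosterone, and spermatids are the haploid cells inside the tubules that condense their chromatin and grow a tail. Among the members, Klk1b3 encodes the gamma subunit of the nerve growth factor complex, Klk1b22 and Klk1b9 encode epidermal growth factor-binding proteins, and Klk1b21, Klk1b24 and Klk1b27 encode enzymes described in mouse Leydig cells.

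The study prepared single-cell libraries from the testes of wild-type (WT) and Alkbh5-/- (KO) C57BL/6 mice aged 12 weeks. Alkbh5 encodes a demethylase that removes N6-methyladenosine from RNA, and the KO is a deletion in the whole body, obtained by crossing heterozygous animals, so germ and somatic cells all carry it. Each genotype had 1 library, and whether a library pooled animals is not clear from the study's text. There is thus no replicate check of any difference between WT and KO, no test was made, and every interval given covers the counting error of unique molecular identifiers (UMIs) only.

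The 8 genes lie on mouse chromosome 7 (GRCm38), all on the plus strand and each with 5 exons. Klk1b8 (43950664 to 43954941) and Klk1b9 (43976061 to 43980376) come first, followed by the Leydig forms Klk1b27 (44052290 to 44056712), Klk1b21 (44102328 to 44106583), Klk1b22 (44112673 to 44116922) and Klk1b24 (44188236 to 44192455). Klk1b3 (44198191 to 44202352) and Klk1b5 (44215945 to 44220703) close the row. The 4 Leydig forms were therefore flanked on both sides by spermatid forms, with 1 other Leydig-high gene, Klk1b16, between Klk1b22 and Klk1b24.

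The sequence next to the annotated starts is shown because it was closely alike in some genes with opposite cell classes. Each of the 8 promoters of RefSeq (GRCm38.p6, from 250 bases before the gene start to 50 after it) held the TATA-like word TTTAAA, searched on both strands, against 13.2% of the 27025 promoters of that length. In Klk1b5, the stretch around the word (44216368 to 44216457) lay inside the gene as placed above. The first base of the word lay at -44 (Klk1b8) to 4 (Klk1b21) relative to the RefSeq start, past that start in Klk1b21 alone. The lines give the plus strand, 5′ to 3′, from 64 bases before that word to 20 after it, with the word in capitals. The windows lie at chr7:44102232-44102321 for Klk1b21, chr7:44188141-44188230 for Klk1b24, chr7:44052209-44052298 for Klk1b27, chr7:44112569-44112658 for Klk1b22, chr7:43975964-43976053 for Klk1b9 and chr7:43950558-43950647 for Klk1b8.
Klk1b21: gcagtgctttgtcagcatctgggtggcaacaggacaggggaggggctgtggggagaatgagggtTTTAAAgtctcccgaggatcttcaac
Klk1b24: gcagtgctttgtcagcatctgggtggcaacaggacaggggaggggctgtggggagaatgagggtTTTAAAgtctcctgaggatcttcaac
Klk1b27: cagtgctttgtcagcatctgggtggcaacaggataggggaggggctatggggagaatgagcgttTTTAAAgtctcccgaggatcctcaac
Klk1b22: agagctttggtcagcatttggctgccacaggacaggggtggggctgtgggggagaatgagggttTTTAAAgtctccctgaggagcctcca
Klk1b9: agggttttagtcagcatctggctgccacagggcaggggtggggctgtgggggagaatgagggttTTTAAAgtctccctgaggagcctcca
Klk1b8: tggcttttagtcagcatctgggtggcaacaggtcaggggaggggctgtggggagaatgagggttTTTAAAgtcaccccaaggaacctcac
The windows of the Leydig forms Klk1b21 and Klk1b24 differed at 1 of 90 aligned bases. Those of Klk1b22, a Leydig form, and Klk1b9, a spermatid form, differed at 5 of 90. This was closer than any spermatid pair in the window, the closest of which was Klk1b3 with Klk1b5 at 92.4% identity. Over the whole RefSeq promoters that order was reversed, with 88.4% for Klk1b22 with Klk1b9 and 91.2% for Klk1b3 with Klk1b5. In the windows, mixed pairs had a median identity of 89.9% (82.0% to 94.4%), pairs of Leydig forms 92.5% and pairs of spermatid forms 86.5%. The farthest pair was Klk1b22 with Klk1b8, with 16 differences in 89 aligned bases. Other words searched on both strands of the RefSeq promoters, none of them containing another, occurred in at most 2 members. AAGGTCA, the word bound by steroidogenic factor 1, occurred in Klk1b21 alone (4.66% of all promoters), and AGAACA, part of the androgen receptor's site, in Klk1b3 and Klk1b24 (19.0%). GGGCGG, a GC box, occurred in Klk1b22 (35.9%), and TGACG, part of the cyclic AMP response element, in 0 of the 8 (21.0%). A match is a letter match, not a bound site.

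Near-identical genes raise the question of whether reads were assigned to the right copy. The members' transcripts in the GENCODE annotation were 855 to 1391 bases long and 83.6% to 94.1% identical over the 28 pairs. The median identity was 91.2% for 6 pairs of Leydig forms, 85.8% for 6 pairs of spermatid forms and 87.1% for 16 mixed pairs. Each of the 201 words of 100 bases in the last 300 bases of a member's transcript occurred in no other kallikrein transcript, for all 8 members. How the authors' counting treated a read that fits 2 copies is not given in the sources used here, so the split between close copies, above all Klk1b21, Klk1b24 and Klk1b27, keeps that uncertainty. A UMI counts a molecule once whatever its length. UMIs scaled to a class total of 1000000 (counts per 1000000, CPM) thus need no length correction between genes. Comparisons of CPM between members keep the uncertainty about reads that fit 2 copies.

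The tables held 5756 WT and 7012 KO cell barcodes with a median of 10905.5 and 9117.5 UMIs, all with more than 500 detected genes, the study's own limit, and 45 barcode sequences occurred in both libraries. The study states somewhat fewer cells than these barcodes. Alkbh5 had 607 UMIs in WT and 5 in KO. Clustering of both libraries gave 15 clusters, named from marker lists, and 2 of them stayed unnamed, called here the Ssxb2 and the Fam71b cluster after a gene among their 10 leading genes. The Leydig-like class held 94 WT and 1168 KO cells, or 1.63% and 16.7% of the barcodes, and the elongating spermatid-like class 2425 and 1322, or 42.1% and 18.9%. Of 20 Leydig markers, 18 had UMIs in the Leydig-like class of each library and Cyp2s1 and Timd2 were at 0. All 26 elongating spermatid markers had UMIs in the elongating class.

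The Leydig forms were abundant in Leydig-like cells of both genotypes and close to absent elsewhere. Klk1b21 was the highest, with 1008 CPM in WT (1046 UMIs) and 1269.6 CPM in KO (13013 UMIs). Klk1b27 followed with 774 CPM in WT and 872 CPM in KO, then Klk1b24 with 641 and 814 CPM, and Klk1b22 with 211 and 279.6 CPM. The order of the 4 genes was the same in both libraries, and the counting intervals of neighbours in that order did not overlap in either of them. In WT the closest neighbours were Klk1b27 (95% interval 721 to 829 CPM) and Klk1b24 (593 to 692 CPM).

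Outside the Leydig-like class the same 4 genes were at trace levels. Over all germ cells, Klk1b21 was detected in 27 of 5588 WT cells (0.483%) and 132 of 5268 KO cells (2.51%), and Klk1b22 in 3 (0.0537%) and 30 (0.569%). In the round spermatid-like class of WT, Klk1b22 had 0 UMIs, which allows a level of up to 0.136 CPM at 3 counts, and Klk1b21 had 1 UMI. Set against its own level in Leydig-like cells, the germ cell level of the 4 genes was 0.0241% to 0.0889% in WT and 0.206% to 0.253% in KO. The 17 detected Leydig markers had a median of 0.0299% in WT and 0.263% in KO on the same measure. Each of the 4 genes was below that median in KO, and in WT Klk1b22 was below it and the other three above. In Sertoli-like cells, WT had 0 UMIs of any of the 4 in 49 cells, which allows 6.46 CPM, and KO had 5 to 18 UMIs in 482 cells.

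**Figure D1:**
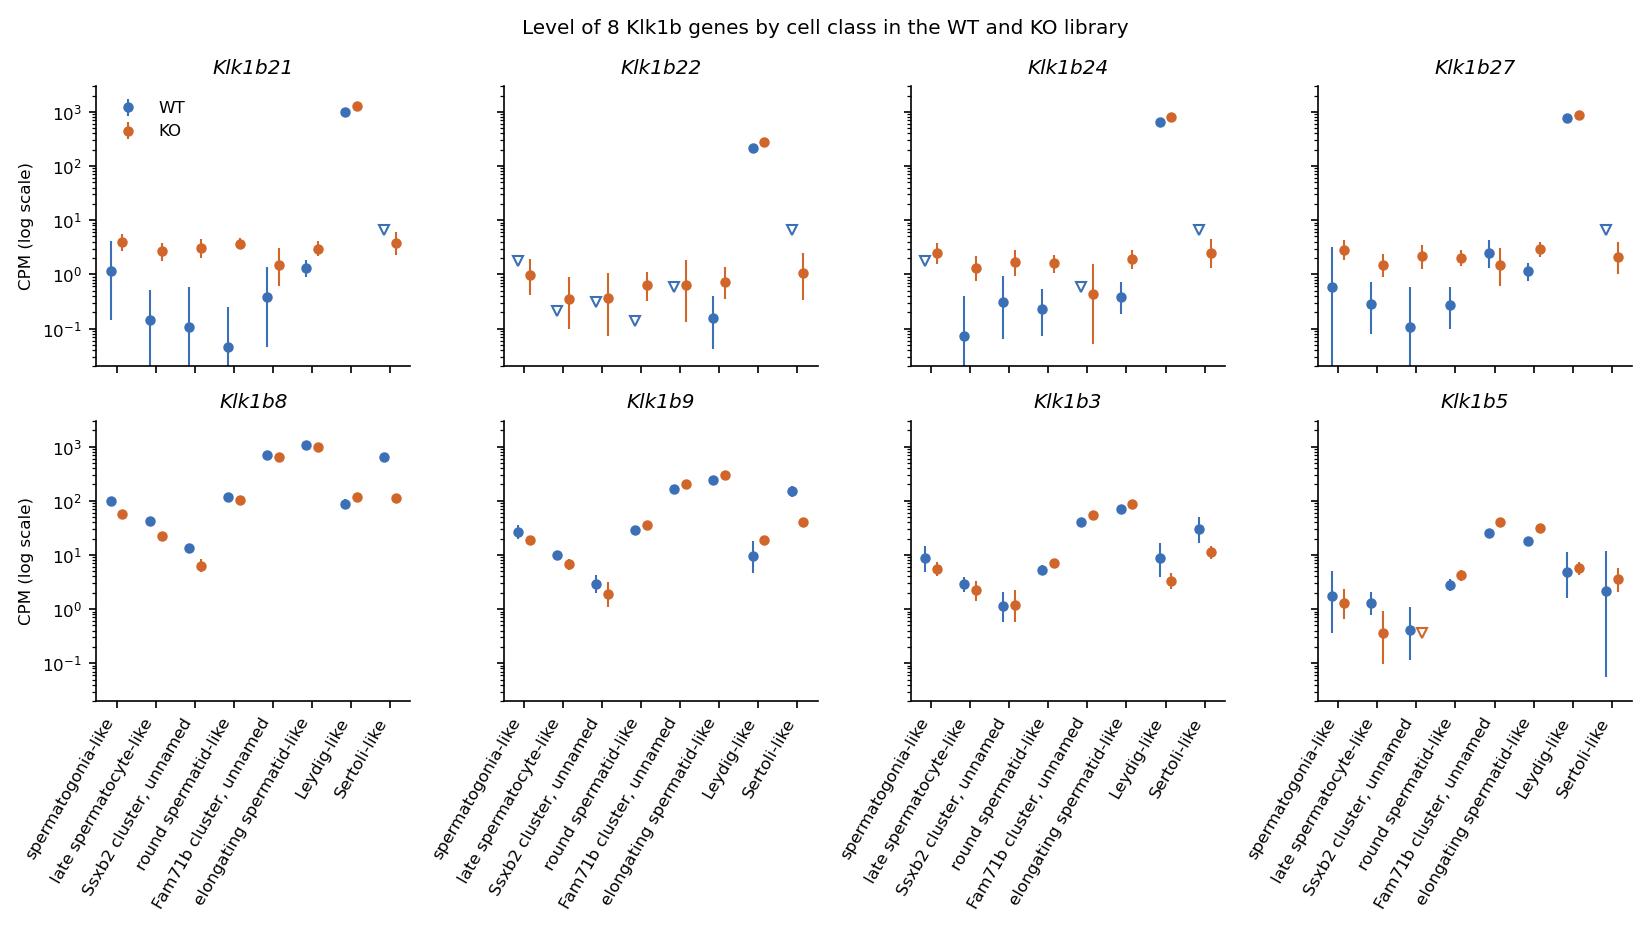
Summed level of each of the 8 members in 8 cell classes, in CPM on a log axis, with WT in blue, KO in orange and exact 95% Poisson intervals as bars; open triangles mark a class with 0 UMIs, at the level that 3 counts would give. The 4 Leydig forms peak in Leydig-like cells, with Klk1b21 at 1008 CPM in WT and 1269.6 CPM in KO, and the 4 spermatid forms peak in spermatids, with Klk1b8 at 1048 and 978 CPM in the elongating class.

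Between genotypes, each Leydig form was somewhat higher in KO Leydig-like cells. The log2 ratio of KO to WT was 0.33 for Klk1b21 (0.24 to 0.42), 0.41 for Klk1b22 (0.21 to 0.61), 0.34 for Klk1b24 (0.23 to 0.46) and 0.17 for Klk1b27 (0.07 to 0.28). Summed over the 4 genes, the level was 2634 CPM in WT and 3234 CPM in KO, a log2 ratio of 0.30 (0.24 to 0.35), and the median over all 15333 genes with at least 10 UMIs there was -0.07. None of the 4 reached a 2-fold difference. Of all 8 members, 0 were at least 2-fold higher in KO Leydig-like cells, where 7.34% of all genes were, and 1, Klk1b3, was at least 2-fold lower, where 17.2% of all genes were.

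The summed ratio varied with how the class was drawn. It was 0.27 when all Klk genes were kept out of the clustering, 0.11 at a finer cluster resolution and 0.15 when cells were gated on Leydig markers, and Klk1b27 was at -0.02 at the finer resolution. Summed Leydig markers in the class were at 65359 CPM in WT and 89192 CPM in KO. Single Leydig markers moved in both directions beside the ratio of the forms. Insl3, a Leydig peptide hormone, was at 4194 CPM in WT and 5183 CPM in KO (log2 ratio 0.31), and Hsd3b1, a steroidogenic dehydrogenase, at 3020 and 3988 CPM (0.40). Ptgds (12123 and 27233 CPM, 1.17) and Lcn2 (12320 and 23799 CPM, 0.95) were also higher in KO. Cyp17a1, which makes androgens from progestins, was lower in KO (10011 and 5586 CPM, -0.84), as was Cyp11a1, the enzyme that opens steroid synthesis (4053 and 1581 CPM, -1.36). Star was at -0.30 and Lhcgr at -0.08. Summed macrophage markers in the class were at 565 CPM in WT and 1503 CPM in KO, with 12 and 18 of 18 markers detected. Summed Sertoli markers were at 2889 and 3633 CPM, with 14 and 17 of 18 detected. Their part in the ratio was not tested.

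The proportions among the Leydig forms were compared next, since a share within a pair of genes needs no library total. Klk1b24 made up 38.9% of the UMIs of Klk1b24 and Klk1b21 together in WT Leydig-like cells (36.5% to 41.2%) and 39.1% in KO (38.4% to 39.7%). The share of Klk1b22 in its sum with Klk1b21 was 17.3% (15.3% to 19.5%) and 18.0% (17.5% to 18.7%). Klk1b27 had 43.4% of its sum with Klk1b21 in WT (41.2% to 45.7%) and 40.7% in KO (40.1% to 41.4%), which was the share that differed most between WT and KO.

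Within the Leydig-like class the forms were spread unevenly over cells. For this, each cell was thinned to 5729 UMIs, which left 87 WT and 990 KO Leydig-like cells and removed 7 and 178. Klk1b21 was then detected in 74.7% of WT and 79.4% of KO cells, Klk1b24 in 63.2% and 77.1%, Klk1b27 in 66.7% and 65.3%, and Klk1b22 in 26.4% and 39.0%. Before thinning, these shares were 74.5% and 79.8%, 63.8% and 78.0%, 63.8% and 64.1%, and 33.0% and 41.5%, at a median of 10004 and 7874 UMIs per cell. The unthinned share of elongating spermatid-like cells with a UMI of Klk1b21 was 0.825% in WT and 2.80% in KO, at a median of 8921 and 8393.5 UMIs.

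A cell could hold all of the Leydig forms or none. Among the thinned KO cells, 33.8% had a UMI of all 4 and 12.3% had none, and in WT these were 24.1% and 18.4%. The summed UMIs of the 4 genes per cell ran from 0 to 140 in KO with a median of 10, and from 0 to 84 in WT with a median of 6. The 99 KO cells with most UMIs of a gene held 39.7% of the UMIs of Klk1b21, 36.1% of Klk1b24, 48.4% of Klk1b27 and 65.8% of Klk1b22. In WT the 9 cells with most UMIs held 40.9% (Klk1b24) to 80.3% (Klk1b22). This share is larger for a gene with fewer UMIs, so it sets no order among the genes.

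The forms were also found in the same cells. KO Leydig-like cells with a UMI of Klk1b27 (646 cells) held a mean of 10.4 UMIs of Klk1b21, and those without (344 cells) held 1.33. For Klk1b24 these means were 6.72 and 1.09, and for Klk1b22 they were 2.31 and 0.18. Insl3 differed far less, with 32.4 and 28.0 UMIs, as did Hsd3b1, with 24.8 and 21.8, and Cyp17a1 stood between with 38.6 and 22.1. In the 58 and 29 WT cells, the means of Klk1b21 were 8.67 and 0.69, but Insl3 (31.8 and 15.6) and Cyp17a1 (72.2 and 40.5) differed more than in KO. Cells without Klk1b27 also had a UMI of these markers less often. In KO, the shares with and without it were 98.5% and 81.4% for Cyp17a1, 99.8% and 90.4% for Insl3, and 92.9% and 77.9% for Hsd3b1. In WT they were 100% and 65.5%, 100% and 75.9%, and 89.7% and 51.7%. The contrast with the markers is thus 1 of mean UMIs. This split by Klk1b27 was chosen after values were seen, and doublets and cell quality were not separated from it.

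The spermatid forms were highest in elongating spermatid-like cells, apart from Klk1b5, and Klk1b8 stood far above the rest. Klk1b8 was at 1048 CPM in WT elongating spermatid-like cells (26869 UMIs) and 978 CPM in KO (13382 UMIs). Klk1b9 was at 237 and 303 CPM, Klk1b3 at 69.0 and 87.5 CPM, and Klk1b5 at 18.0 and 30.8 CPM. Klk1b5 was higher, at 25.8 CPM in WT and 40.4 CPM in KO, in the unnamed cluster with Fam71b among its leading genes. The order of the 4 genes was the same in both libraries with no overlap between the intervals of neighbours. After thinning, Klk1b8 was detected in 96.9% of WT and 98.1% of KO cells, Klk1b9 in 68.7% and 75.7%, Klk1b3 in 29.2% and 33.7%, and Klk1b5 in 7.50% and 14.8%. The sum of the 4 genes was a median of 8 UMIs per cell in both libraries, with quartiles of 5 and 10, where the Leydig forms in KO Leydig-like cells had quartiles of 3 and 27.

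The germ clusters were ordered by Stra8, Sycp1, Acrv1, Tnp2 and Spem1 after their values were seen. Along them, Klk1b8 and Klk1b9 were far higher in the late spermatid clusters than in spermatocytes. In late spermatocyte-like cells, Klk1b8 had 601 of 13982037 UMIs in WT and 249 of 11315111 in KO. That level was higher than in the Ssxb2 cluster placed after them. In the late spermatocyte-like cluster with Pabpc6 among its leading genes, Tnp2, a spermatid marker, was at 1147 CPM in WT and 612 CPM in KO. Tnp2 was at 195 and 154 CPM in the other late spermatocyte-like cluster, and at 225 and 105 CPM in the Ssxb2 cluster. The source of these Klk1b8 UMIs was not tested. Klk1b8 was at 13.3 CPM in WT and 6.36 CPM in KO in the unnamed Ssxb2 cluster, and at 118 and 104 CPM in the round spermatid-like class. It reached 706 and 645 CPM in the unnamed cluster with Fam71b among its leading genes. Klk1b9 took the same course, with 2.93 CPM in WT and 1.92 CPM in KO in the Ssxb2 cluster. It was at 28.4 and 36.1 CPM in the round spermatid-like class and at 164 and 204 CPM in the Fam71b cluster. Before meiosis, in spermatogonia-like cells, Klk1b8 was at 99.2 CPM in WT and 57.1 CPM in KO, beside 1973 and 1199 CPM of Tnp2, a spermatid marker that is at 19987 and 20747 CPM in the elongating class.

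Inside the elongating class the members parted. Its 3 clusters are called here by a gene among their 10 leading genes, Prss58, Tex37 or Spem1. In that order, WT Klk1b8 was at 965, 1166 and 1037 CPM, and WT Klk1b3 at 58.3, 76.6 and 76.1 CPM. WT Klk1b5 was instead lower at each step, at 30.5, 16.1 and 1.93 CPM. In KO, Klk1b5 was at 41.6, 20.2 and 9.25 CPM. Among the spermatid forms, Klk1b5 alone thus had its own lowest level of the 3 clusters in the most Spem1-rich one. Its values there rest on 14 WT and 20 KO UMIs. Klk1b9 was at 258 CPM in WT and 391 CPM in KO in that cluster.

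**Figure D2:**
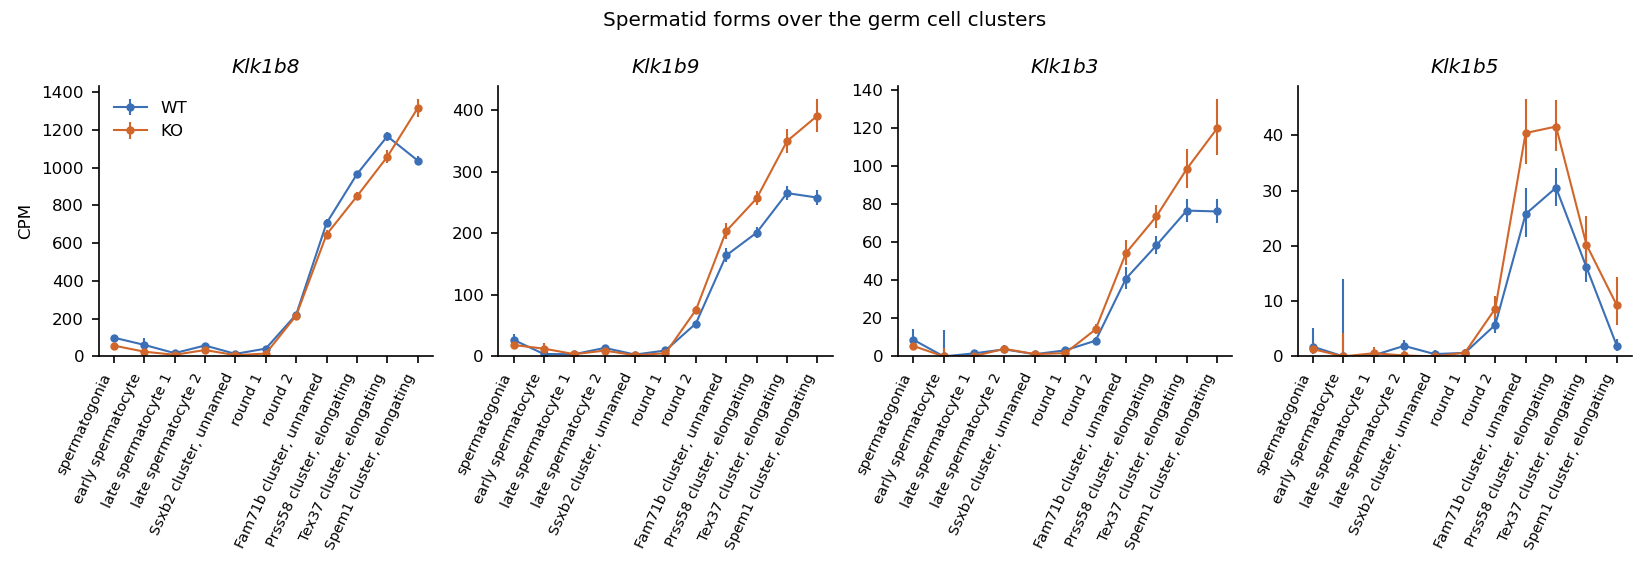
Level of the 4 spermatid forms over the 11 germ clusters in CPM on a linear axis of its own for each gene, with WT in blue and KO in orange and exact 95% Poisson intervals; the order of the clusters was set from stage markers after values were seen. Klk1b8, Klk1b9 and Klk1b3 are high in all elongating clusters, while Klk1b5 is at 30.5 CPM in the Prss58 and 1.93 CPM in the Spem1 cluster of WT.

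Between genotypes the summed level of the spermatid forms was nearly the same in the elongating class, with 1372 CPM in WT and 1399 CPM in KO and a log2 ratio of 0.03 (0.00 to 0.05). The members did not move alike. Klk1b8 was slightly lower in KO, at -0.10 (-0.13 to -0.07), and Klk1b9 higher at 0.35 (0.30 to 0.41), as were Klk1b3 at 0.34 (0.24 to 0.45) and Klk1b5 at 0.78 (0.58 to 0.97). The median over all 15341 genes tested in the class was 0.24, so relative to it Klk1b8 lay further down and Klk1b9 and Klk1b3 close by.

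The clusters of the class held different shares of each library, so each was compared by itself. Klk1b8 was lower in KO in the Prss58 (-0.19) and Tex37 (-0.14) clusters and in the unnamed Fam71b cluster (-0.13), but higher in the Spem1 cluster, at 0.34 (0.28 to 0.40), which held 826 WT and 270 KO cells. Klk1b9 was higher in KO in each of these, at 0.35, 0.40, 0.31 and 0.60. Klk1b5 had its largest ratio in the Spem1 cluster, at 2.26 (1.20 to 3.36), from 14 WT and 20 KO UMIs. Of the UMIs of Klk1b9 and Klk1b8 together, Klk1b9 made up 18.4% in WT (18.0% to 18.9%) and 23.6% in KO (23.0% to 24.3%) elongating cells, 18.9% and 24.0% in the unnamed Fam71b cluster, and 19.3% and 25.8% in round spermatid-like cells. This share needs no library total, and it was higher in KO in all of these classes.

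Of the 8 members, 4 were at least 2-fold higher in KO elongating spermatid-like cells, where 16.9% of all genes were, and 0 were at least 2-fold lower, where 4.43% of all genes were. The 4 were the Leydig forms, from 4 to 33 WT UMIs. Klk1b21 was at 1.29 CPM in WT and 3.0 CPM in KO, Klk1b27 at 1.13 and 2.92, Klk1b24 at 0.390 and 1.90, and Klk1b22 at 0.156 and 0.731. The summed Leydig markers in the same cells were at 53.8 CPM in WT and 220 CPM in KO, with 17 and 18 of 20 markers detected. Relative to their Leydig-like level, the 4 genes were at 0.0608% to 0.146% in WT and 0.234% to 0.335% in KO, and the 17 Leydig markers had a median of 0.0335% and 0.207%. Each of the 4 was above that median in both libraries, with 13 to 14 of the 17 markers below it in WT and 10 to 14 in KO. The source of these UMIs was not tested.

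**Figure D3:**
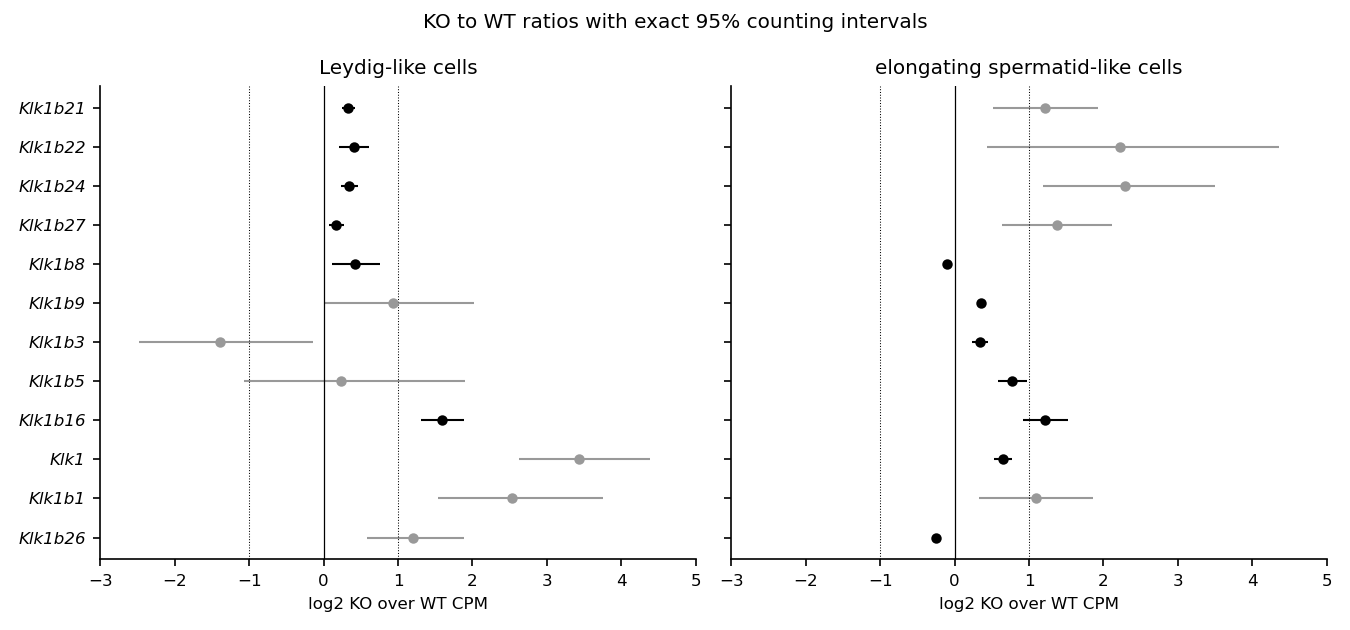
Log2 ratio of KO to WT for the 8 members and for Klk1b16, Klk1, Klk1b1 and Klk1b26, in Leydig-like and elongating spermatid-like cells, with exact 95% intervals for counting error; gray points rest on under 50 WT UMIs and dotted lines mark 2-fold. The 4 Leydig forms lie between 0.17 and 0.41 in Leydig-like cells, and the spermatid forms between -0.10 and 0.78 in elongating cells.

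The spermatid forms also had UMIs in Leydig-like cells, where RNA of spermatids was present. The 26 elongating spermatid markers in KO Leydig-like cells had a median of 5.40% of their elongating level (3.81% to 7.13%). Against this, Klk1b8 was at 115.5 CPM (1184 UMIs) or 11.8% of its elongating level, above each of the 26 markers, and Klk1b5 was at 5.66 CPM or 18.4%. Klk1b9, at 18.4 CPM or 6.09%, lay within the markers' range, and Klk1b3, at 3.32 CPM or 3.79%, just below it. With called doublets removed, the markers fell to a median of 2.88% (1.85% to 4.13%), and Klk1b8 was at 10.5%, Klk1b5 at 16.9%, Klk1b9 at 4.2% and Klk1b3 at 2.98%. Klk1b5 rested on 58 UMIs before and 48 after that step. With Leydig-like cells gated on markers, the spermatid markers ran from 4.38% to 12.2%, so that Klk1b8, at 11.6%, lay inside their range and Klk1b5, at 19.8%, above it.

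The mix of the spermatid forms differed between the classes of the KO library. Klk1b9 made up 13.8% of the UMIs of Klk1b9 and Klk1b8 together in KO Leydig-like cells (12.0% to 15.7%) and 23.6% in KO elongating cells, with no overlap of the intervals. In WT Leydig-like cells, the share was 10.1% (4.95% to 17.8%). WT Klk1b8 was at 85.8 CPM there (89 UMIs) or 8.19% of its elongating level, within the markers' range of 3.22% to 18.5%. In KO Sertoli-like cells, by contrast, Klk1b8 was at 11.7% and the markers at 11.1% to 19.1% with a median of 14.1%. The 49 WT Sertoli-like cells held more spermatid RNA, with Klk1b8 at 639.9 CPM and the markers at a median of 50.8% of their elongating level. The source of the Klk1b8 UMIs in Leydig-like cells was not tested.

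**Figure D4:**
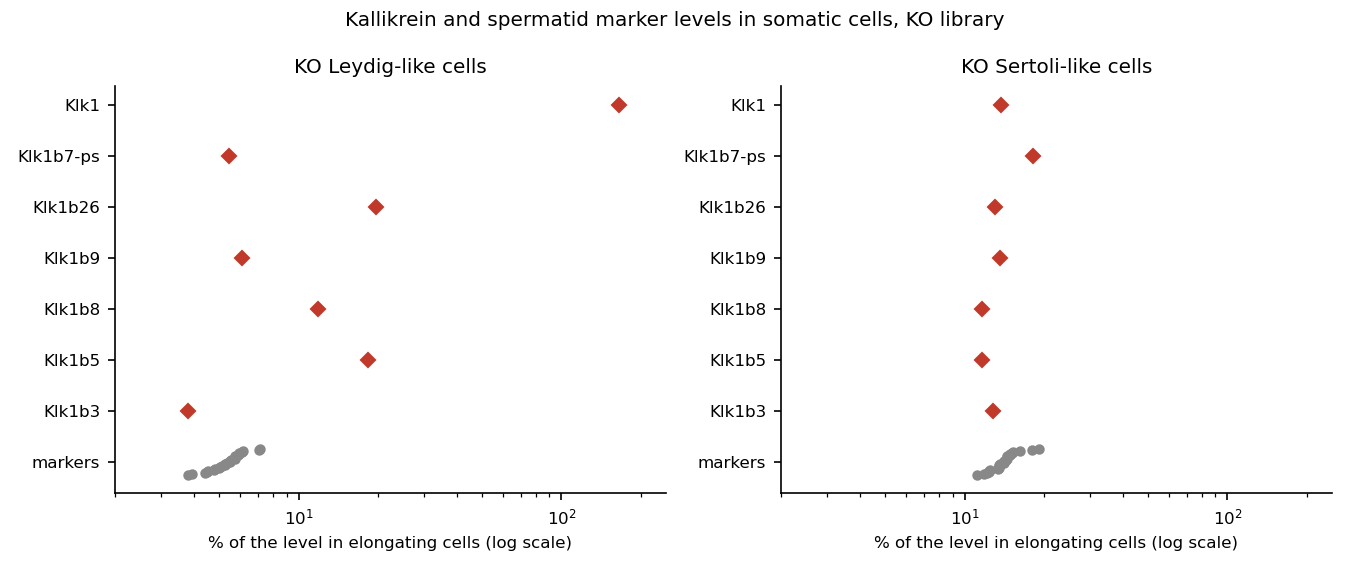
Level of the spermatid forms, of Klk1b26, Klk1b7-ps and Klk1 and of 26 spermatid markers in Leydig-like and Sertoli-like cells of the KO library, each as a percent of its own level in KO elongating spermatid-like cells on a log axis. In Leydig-like cells Klk1b8 (11.8%), Klk1b5 (18.4%) and Klk1b26 (19.6%) lie above the markers (3.81% to 7.13%), and Klk1 is at 166%, with 224 of its 1280 UMIs there in 1 cell.

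Klk1b3 and Klk1b8 differed in direction between the classes. Klk1b3 was at 8.68 CPM in WT and 3.32 CPM in KO Leydig-like cells, a log2 ratio of -1.39 (-2.48 to -0.14) from 9 and 34 UMIs, but was higher in KO elongating cells. Klk1b8 was at 0.43 (0.12 to 0.76) in Leydig-like cells and -0.13 when these were gated on markers, against -0.10 in elongating cells. The differences between classes were not tested.

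Of the 20 other kallikrein rows, 7 were over 10 CPM in a class of at least 50 cells, and 4 of these were at least 2-fold higher in KO Leydig-like cells, where 7.34% of all genes were. Klk1b1 passed 10 CPM in KO Leydig-like cells only. The limit thus favours genes high in that class, and the count is a description. Klk1, the kinin-releasing enzyme, was at 11.6 CPM in WT (12 UMIs) and 125 CPM in KO (1280 UMIs), a log2 ratio of 3.43 (2.62 to 4.39). In KO, 1 cell held 224 of these UMIs and 19.2% of cells had any, a spread over cells that the interval does not cover. Klk1b16, which encodes an enzyme named gamma-renin, was at 102 and 308 CPM (1.59, 1.31 to 1.89), Klk1b1 at 7.71 and 44.5 CPM, and Klk1b26, which encodes a prorenin-converting enzyme, at 21.2 and 48.8 CPM (1.20). The intervals of Klk1, Klk1b16 and Klk1b1 (1.54 to 3.75) lay above those of all 4 Leydig forms, and that of Klk1b26 (0.59 to 1.89) touched that of Klk1b22.

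In elongating cells, Klk1b26 was the most abundant of the 7, at 295 CPM in WT and 248 CPM in KO (-0.25), next to Klk1b9 among the members. Klk1b7-ps was at 128 and 151 CPM, Klk1 at 48.0 and 75.3, Klk2-ps at 44.0 and 40.4 and Klk1b4, the alpha subunit of the nerve growth factor complex, at 11.3 and 14.2 CPM. Along the chromosome, the genes over 10 CPM from Klk1b27 to Klk1b24 were highest in Leydig-like cells and those on either side in elongating spermatid-like cells or the Fam71b cluster, except Klk1b1, which lies between Klk1b8 and Klk1b9, and Klk1 at the end, both highest in KO Leydig-like cells.

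**Figure D5:**
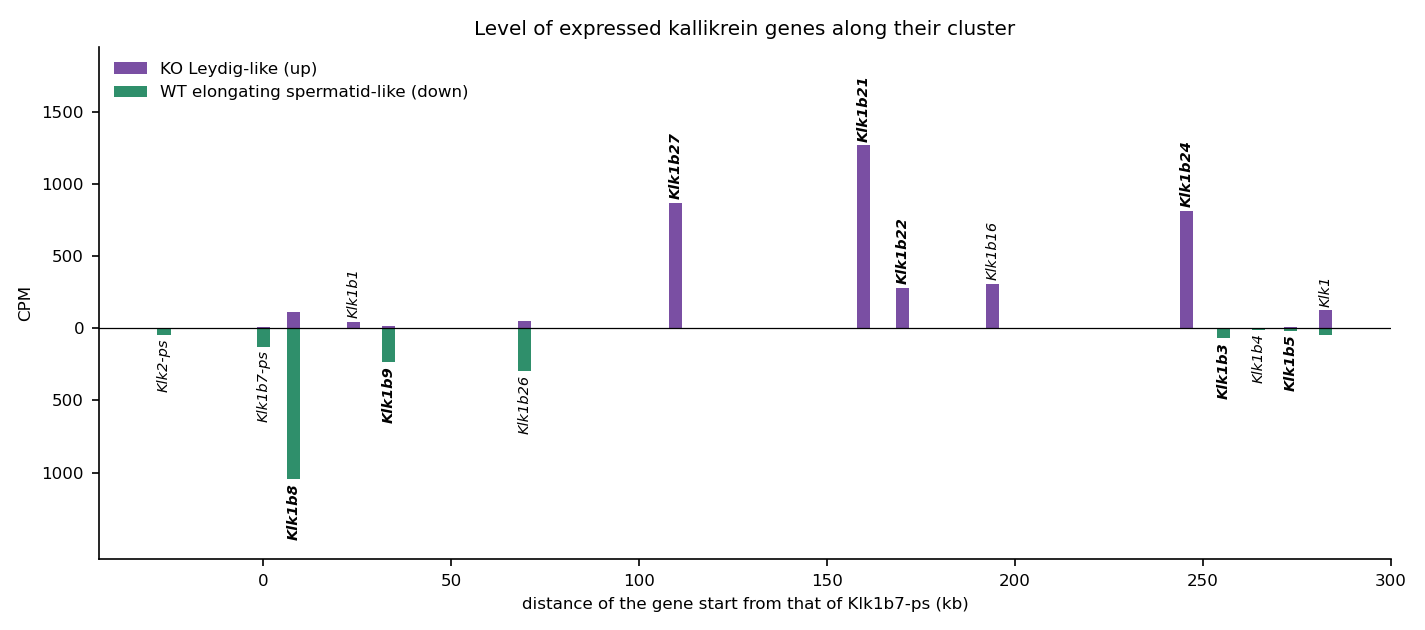
Level of the members and of the other kallikrein genes over 10 CPM at their place in the gene cluster, as the distance in kb of the gene start from that of Klk1b7-ps; bars upward give CPM in KO Leydig-like cells, bars downward CPM in WT elongating spermatid-like cells, and members are in bold. The tall upward bars, led by Klk1b21 at 1269.6 CPM, lie between the downward bars of Klk1b8 and Klk1b9 on one side and Klk1b3 and Klk1b5 on the other.

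The genes whose levels followed each member most closely were taken over 17 points, each a class of 1 library with at least 50 cells, among 18750 genes. The points share libraries and depth, so the correlations of log2(CPM + 1) are a description. Cyp17a1 was closest to Klk1b21 (Pearson r = 0.989), ahead of Ephx1 and Sult1e1, an estrogen sulfotransferase. Hao2, Gstt1 and Aqp2 were closest to Klk1b24 (0.989 to 0.991), Adgrg7, Nxph3 and Paqr6 to Klk1b22 (0.990 to 0.993), and Lbx2, Adgrg7 and Acss3 to Klk1b27 (0.980 to 0.982). Among the spermatid forms, Klk1b8 was followed by Ccdc57, Prkar2a, a regulatory subunit of protein kinase A, and 1700015G11Rik (0.985 to 0.990), and Klk1b9 by Gm5893, Defb33 and Ubqlnl (0.990 to 0.992). Odf3b, Gm40662 and Stap2 lay closest to Klk1b3 (0.968 to 0.979), and Calml4, Acsl5 and Fhit to Klk1b5 (0.964 to 0.965). The members' own pairs within a set had r of 0.906 to 0.989, and pairs across the sets -0.198 to 0.106, which the choice of the members fixes.

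Genes that act with kallikreins were counted in the same 2 classes. Over all genes, 7.34% were at least 2-fold higher and 17.2% lower in KO Leydig-like cells, and 16.9% higher and 4.43% lower in KO elongating cells. Of the kallikrein-kinin pathway, 9 genes had at least 10 UMIs in Leydig-like cells, with Kng2 at least 2-fold higher in KO and Cpn1 lower, and their median log2 ratio was -0.02, against -0.07 over all genes. Serping1, the inhibitor of plasma kallikrein and complement C1, was the most abundant at 421 CPM in WT and 652 CPM in KO (0.63), ahead of Mme, a peptidase that breaks down kinins, at 79.0 and 89.3 (0.18), and Ace, the angiotensin-converting enzyme, at 69.4 and 38.5 (-0.85). In elongating cells, 8 genes had enough UMIs and 1, Mme, was at least 2-fold higher, with a median of 0.17. Ace was at 458 and 340.5 CPM there (-0.43), Xpnpep1 at 6.82 and 9.13 and Cpd at 3.08 and 3.0.

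Of the growth factor and hormone substrates and their receptors, 6 had enough UMIs in Leydig-like cells. Ren1 and Insr were at least 2-fold higher in KO, where 7.34% of all genes were. The median was 0.63, against -0.07 over all genes. Agt, which encodes angiotensinogen, was at 3524 and 4386 CPM (0.32), Igf1 at 54.9 and 53.8 (-0.03), and Ren1, which encodes renin, at 12.5 CPM in WT and 52.2 CPM in KO (2.06, 1.27 to 2.98) from 13 and 535 UMIs. In elongating cells, 7 were counted. Egf, Agt and Igf1r were at least 2-fold higher and Agtr1a lower, where 16.9% and 4.43% of all genes were. The median was 0.68, against 0.24 over all genes, beside the higher Leydig markers given above. Agt, a leading gene of the Leydig-like cluster, was at 1.05 and 6.58 CPM there, from 27 and 90 UMIs. Igf1 was at 3.31 and 4.02 CPM, and Egf, the growth factor precursor, at 0.663 and 1.46.

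Of the serine protease inhibitors, 11 were counted in Leydig-like cells. Serpina3n and Serpina3m were at least 2-fold higher in KO and Spink2 lower, where 7.34% and 17.2% of all genes were. The median was 0.33, against -0.07 over all genes. Serpina5, the protein C inhibitor, was at 434 and 459 CPM (0.08), Serpina3c, a kallikrein-binding protein, at 265 and 385 (0.54) and Serpina3g at 227 and 315 (0.47). In elongating cells, 5 of 9 were at least 2-fold higher, namely Serpina3c, Serpina3g, Serpina3n, Serpina5 and Serpina1a, where 16.9% of all genes were, with a median of 1.32 against 0.24 over all genes, beside the higher Leydig markers given above. Serpinb6a was at 172 and 161 CPM there (-0.10), Spink2, an inhibitor of acrosin, at 124 and 159 (0.36), and Spint2 at 20.5 and 29.1 (0.51).

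Of 17 other testis serine proteases in Leydig-like cells, Prss50 was at least 2-fold higher in KO and 7 were lower, where 7.34% and 17.2% of all genes were, with a median of -0.63 against -0.07, beside summed elongating spermatid markers of 16614 CPM in WT and 12803 CPM in KO in these cells. Prss39 was at 78.1 and 45.6 CPM (-0.78), Prss58 at 37.6 and 40.1 (0.09) and Prss37 at 19.3 and 21.0 (0.12). In elongating cells, 2 of 18 were at least 2-fold higher, Prss50 and Prss52, where 16.9% of all genes were. The median was 0.24, equal to that of all genes. Prss58 was at 661 and 885 CPM (0.42), Prss39 at 552.3 and 552.5 (0.00) and Prss55 at 288 and 445 (0.63). Klk1b8 was thus more abundant in elongating cells than any of these 3 proteases in either library, and Klk1b9 less abundant than each of them.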

How the data were processed

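The deposited tables held UMI counts per gene and cell, 1 table for each genotype. The authors, per their methods, removed reads without poly T, extracted barcodes and UMIs, trimmed adapters and poly A, aligned read 2 and counted UMIs per gene and cell. The submitters' processing notes name FastQC 0.11.7, fastp 1, featureCounts 1.6.2 and STAR 2.5.3a. The methods name a human genome build, although the gene symbols are those of mouse, so no coordinate was taken from the tables. Positions and transcripts came from GRCm38 and promoters from RefSeq.

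Barcodes with more than 500 genes were integrated with Seurat 5.3.0 in R 4.3.3 (2000 variable features, 20 anchor dimensions, 30 principal components, resolution 0.3). Clusters were named from marker lists, needing at least 3 detected markers. Of the variable features, 7 were Klk genes. UMIs were summed per class and library and given as CPM with exact Poisson intervals, shares with exact Clopper-Pearson intervals and ratios with the exact conditional interval, at 95% and for counting error only, with scipy 1.17.1 in Python 3.11.15. A gene counted as past the fold at a CPM ratio of at least 2 where both sums together held 10 UMIs or more. For shares of cells, each was thinned to 5729 UMIs, leaving out 362 WT and 914 KO cells. Scrublet in scanpy 1.11.5 called 244 WT (4.24%) and 345 KO (4.92%) doublets, which were kept and then removed in an alternative. Promoter windows and transcripts were aligned pairwise with Biopython 1.88. The scripts were tested on simulated data.

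The members and gene lists were chosen with earlier results of these data known. All 8 members were named, other kallikrein genes over 10 CPM, the 3 non-kallikrein genes with the highest correlation to each member, and the 3 genes of each list with most UMIs in a class. The alternatives changed the clustering, the filters on cells and genes, the depth and weight of cells and the scaling. An alternative for the relative level of the spermatid forms in KO Leydig-like cells was chosen after seeing the data.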

Additional observations from a re-analysis of the deposited data

Results flagged for a closer look

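The kallikrein genes Klk1b3, Klk1b8 and Klk1b26 had intervals of the KO to WT ratio on opposite sides of 0 in Leydig-like and elongating spermatid-like cells, which flagged them as going in different directions in the 2 classes. Klk1b3 had a log2 ratio of -1.39 in Leydig-like and 0.34 in elongating cells, Klk1b8 of 0.43 and -0.10, and Klk1b26, which is no member, of 1.20 and -0.25. Klk1b3 rested on 9 and 34 UMIs in Leydig-like cells. With 1 library per genotype the differences were not tested. No sample could be set apart from its group, since each group holds 1 library.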

How the results depend on the processing

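The number of members highest in Leydig-like cells was 4 under each of the 10 alternatives. Because the members were picked for this split in the same data, that count is no test of it. The summed ratio of the Leydig forms in Leydig-like cells, 0.30, kept its sign and was 0.11 at resolution 0.8 (77 WT and 1080 KO cells), 0.20 without integration, 0.24 with thinned cells and 0.15 with the marker gate (87 and 1190 cells). The summed ratio of the spermatid forms in elongating cells, 0.03, turned to -0.039 without integration, -0.13 with median-of-ratios size factors and -0.041 in the Prss58 cluster alone, and was 0.0015 in the Tex37 and 0.42 in the Spem1 cluster. Klk1b27 in Leydig-like cells turned to -0.022 at resolution 0.8, Klk1b8 there to -0.13 with the marker gate, and Klk1b8 in elongating cells to 0.34 in the Spem1 cluster alone. The cause was not tested. Of the other values, 210 stayed within their interval or factor and 45 moved.

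Counts of genes past 2-fold fell with a higher minimum. In Leydig-like cells, 1125 higher became 687 at 50 UMIs and 72 with a UMI in 25% of cells. The 2636 lower became 1335 at resolution 0.8, 1693 without integration, 1549 with the gate, 1206 at 50 UMIs, 140 at 25% of cells and 4809 with no minimum. In elongating cells, 2600 higher became 961, 147 and 4267, and 679 lower became 200, 17 and 1077, at 50 UMIs, 25% of cells and no minimum. Members past 2-fold went from 1 to 0 in Leydig-like cells at 50 UMIs and from 4 to 2 in elongating cells, and to 0 in both at 25% of cells. No paired analysis was possible because each genotype has 1 library, and for the same reason no library could be left out. The WT Leydig-like values rest on 94 cells.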
